A study of Mus musculus with 24 samples.

Results

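The potassium channel genes were followed through H3K4me3, the histone mark of active promoters, at every region that overlapped an annotated transcription start site (TSS) of a protein-coding gene whose symbol begins with Kcn. Of the 17993 regions with deposited read counts (mouse build mm9), 12985 overlapped the TSS of a protein-coding gene in GENCODE M1 and 71 overlapped that of a Kcn gene. These 71 regions belonged to 67 of the 94 annotated Kcn genes, and 27 genes had no region at a TSS. Kcnip3, Kcnip4, Kcnn2 and Kcnt1 each had more than 1 region, and the region with the higher total count is called the main region. Regions of Kcna3, Kcnab2 and Kcnip3 (main) also held the TSS of another coding gene (AI504432, Nphp4 and Gm17601), so their reads cannot be assigned to a single gene.

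H3K4me3 was measured in the cerebral cortex of C57BL/6 mice from a pair of lines that express FLAG-tagged histone H2B. Mice of the Rosa line (genotype Rosa CAG-H2B-FLAG) carry the tag in almost all cells from development on, after recombination by Vasa-Cre, and their age is given only as adult. Mice of the Camk2a line (genotype CaMKCreERT2 with Rosa26 CAG-floxed-pA-H2B-FLAG) are double-heterozygous males in which the CaMK promoter drives an inducible Cre, and the tag is made after 5 daily injections of 1 mg tamoxifen at 8 weeks, with collection a month later. In single ChIP-Seq the cortex lysate was precipitated with anti-H3K4me3 alone, and in tChIP-Seq, the tandem form, with anti-FLAG and then anti-H3K4me3. The Rosa libraries of tChIP-Seq therefore cover mainly tagged chromatin of almost all cells, and the Camk2a libraries mainly that of cells with a history of Camk2a promoter activity. In the authors' mixing test with cultured cells, anti-FLAG also recovered some chromatin of untagged cells. They report that labelled cells in the brain passed, but lay near, the lower limit of the method. The amount of untagged chromatin in the tChIP-Seq libraries was not measured here. Each of the 4 groups had 3 libraries, each from a lysate of 2 pooled animals. In a blot of Rosa cortex the authors saw the tagged protein as a pair of bands, 1 of which presumably carries an N-terminal extension. No such blot of the Camk2a line is reported. Tamoxifen, the Cre driver and the set of tagged cells differ together between the lines and cannot be told apart from one another.

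Potassium channels let potassium ions out of, or in some families into, the cell, and so set the resting potential and the shape and rate of action potentials. Voltage-gated (Kv) channels open on depolarization, calcium- and sodium-activated channels after spikes, inward rectifiers (Kir) near rest and under G proteins, and tandem-pore (K2P) channels carry background current. In cortex many members are known as neuronal genes with a particular place on the axon, soma or dendrite, whereas a few, such as Kcnj10, are best known from astrocytes and oligodendrocytes, and others from vessels or epithelia.

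Total counts ranged from 1457261 to 1828371 in the Rosa tChIP-Seq libraries, from 2709729 to 3049130 in the Camk2a tChIP-Seq libraries and from 4063200 to 8644574 in single ChIP-Seq, so that the Rosa tChIP-Seq values are the least precise. Replicates differed little beyond counting noise, with a chi-square per degree of freedom of 1.033 to 1.096 between libraries of a group. Of the marker lists examined, 7 of the 8 excitatory neuron genes had a region, and all 7 were higher in the Camk2a than in the Rosa line in tChIP-Seq, their summed level being 1095 to 1136 counts per 1e6 reads (CPM) against 472 to 516. The astrocyte list (6 of 7 lower and Slc1a2 higher, 444 to 445 against 637 to 670 CPM), the oligodendrocyte list (5 of 5 lower, 85.5 to 94.3 against 262 to 266 CPM), the endothelial list (7 of 7 lower, 93.5 to 104 against 299 to 302 CPM), the mural list (3 of 3 lower, 28.4 to 34.8 against 126 to 150 CPM) and the inhibitory neuron list (3 of 5 lower, 60.4 to 66.9 against 103 to 123 CPM) had lower summed levels in the Camk2a line. None of the 8 microglial markers had a region, nor did Tbr1, Gfap, Sox10, Cldn5, Sst or Vip. The part of these differences in cell makeup in the results on potassium channels was not tested, and in these bulk lysates fewer cells with the mark and less mark per cell cannot be told apart.

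The promoters of Kcnip3 and of the neighbouring genes Kcnj9 and Kcnj10 are shown first, because each pair lies within a short stretch of 1 chromosome and its members moved in opposite directions. Kcnip3 encodes a calcium-binding partner of Kv4 channels that is also known as the transcriptional repressor DREAM. The windows run from 250 bases before to 50 bases after the TSS farthest upstream in the region, read from the mm9 genome on the strand of the gene, with each CpG in capitals. The main Kcnip3 window (chr2:127347781-127348080, minus strand, in a region of 5197 bp) held 8 CpG, and the window of the internal Kcnip3 promoter (chr2:127308186-127308485, minus strand, in a region of 1720 bp and 33642 bp away from the main region) held 28. The Kcnj9 window (chr1:174259345-174259644, minus strand) held 8 CpG and the Kcnj10 window (chr1:174271091-174271390, plus strand) 21, with 10774 bp between the regions.
Kcnip3, main region: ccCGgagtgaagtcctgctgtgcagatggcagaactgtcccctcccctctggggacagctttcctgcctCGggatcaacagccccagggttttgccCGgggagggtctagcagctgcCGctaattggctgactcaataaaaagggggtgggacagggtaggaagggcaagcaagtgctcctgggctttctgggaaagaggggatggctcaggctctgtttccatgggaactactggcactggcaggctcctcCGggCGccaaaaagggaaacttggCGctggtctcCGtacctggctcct
Kcnip3, internal region: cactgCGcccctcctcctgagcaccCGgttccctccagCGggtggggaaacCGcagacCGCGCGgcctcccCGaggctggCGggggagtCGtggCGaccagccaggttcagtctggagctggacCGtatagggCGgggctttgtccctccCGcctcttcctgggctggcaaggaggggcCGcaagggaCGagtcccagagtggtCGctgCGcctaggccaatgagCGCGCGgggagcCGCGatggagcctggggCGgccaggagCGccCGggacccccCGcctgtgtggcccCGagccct
Kcnj9: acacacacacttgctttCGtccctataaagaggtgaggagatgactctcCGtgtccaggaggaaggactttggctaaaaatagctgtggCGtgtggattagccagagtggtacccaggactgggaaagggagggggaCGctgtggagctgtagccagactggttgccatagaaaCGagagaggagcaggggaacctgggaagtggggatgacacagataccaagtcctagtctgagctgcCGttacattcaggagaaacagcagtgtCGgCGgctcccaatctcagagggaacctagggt
Kcnj10: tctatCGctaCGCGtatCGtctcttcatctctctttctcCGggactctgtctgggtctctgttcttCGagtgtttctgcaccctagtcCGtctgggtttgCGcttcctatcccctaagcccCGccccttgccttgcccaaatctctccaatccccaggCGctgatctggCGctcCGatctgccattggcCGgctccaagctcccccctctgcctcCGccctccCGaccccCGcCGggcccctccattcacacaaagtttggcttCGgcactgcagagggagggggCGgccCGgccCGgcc

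At the internal Kcnip3 promoter (chr2:127307505-127309224) the level was 30.3, 44.7 and 38.7 CPM in the Rosa tChIP-Seq libraries and 12.1, 13.0 and 14.4 CPM in the Camk2a ones. Single ChIP-Seq gave 10.4, 14.6 and 11.9 CPM in Rosa and 14.3, 14.6 and 16.0 CPM in Camk2a. The Rosa tChIP-Seq libraries thus stood above all 9 others, and the remaining groups lay close together. The difference between lines was -1.51 ± 0.172 (log2 fold change ± SE) in tChIP-Seq, with an adjusted p of 3.72e-12. At the main region (chr2:127342867-127348063) the order was the opposite: 81.4, 82.9 and 81.4 CPM in Rosa and 129, 112 and 109 CPM in Camk2a tChIP-Seq, a difference of 0.52 ± 0.0842 (adjusted p = 2.09e-07). The ratio of internal to main counts within a library, which needs no scaling, was 0.462 ± 0.0847 (SD, n = 3) in Rosa tChIP-Seq against 0.114 ± 0.0189 in Camk2a tChIP-Seq, and 0.146 ± 0.0262 against 0.159 ± 0.0117 in single ChIP-Seq. The ratios of the lines did not overlap in tChIP-Seq, which restates the opposite differences for which the pair was chosen.

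Kcnj9, a subunit of the G protein-gated inward rectifiers of neurons, had 36.5, 29.2 and 25.6 CPM in Rosa and 81.7, 89.1 and 73.7 CPM in Camk2a tChIP-Seq. Its neighbour Kcnj10, the weak inward rectifier through which astrocytes take up potassium, had 45.4, 38.2 and 36.1 CPM in Rosa and 16.7, 15.5 and 17.7 CPM in Camk2a tChIP-Seq. Neither pair of groups overlapped, and the differences were 1.41 ± 0.12 (adjusted p = 1.76e-17) for Kcnj9 and -1.26 ± 0.156 (adjusted p = 7.17e-11) for Kcnj10. In single ChIP-Seq the lines differed by 0.01 at both genes, with adjusted p of 0.961 and 0.978. The count of Kcnj10 relative to Kcnj9 in a library was 1.24 to 1.41 in Rosa tChIP-Seq, 0.174 to 0.24 in Camk2a tChIP-Seq and 0.493 to 0.579 in the 6 single ChIP-Seq libraries, so that the ratio moved up in one line and down in the other.

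Over all members, 52 of the 71 regions were called higher and 4 lower in the Camk2a line in tChIP-Seq (adjusted p under 0.01 in edgeR's quasi-likelihood test over all regions), and 15 were not called. Of all regions tested, 17% were called higher and 14.6% lower, and among regions at a protein-coding TSS the shares were 18.3% and 15.2%. The median log2 fold change was 0.72 over the members (middle 50% from 0.41 to 1.08) and -0.00 over all regions. At 58 members the 3 Camk2a libraries lay above the 3 Rosa libraries, and at 5 below, where 24.8% and 23.6% of all regions did so. Member regions took up 0.452% to 0.462% of a library's counts in Rosa tChIP-Seq and 0.737% to 0.756% in Camk2a tChIP-Seq. The share was 0.534% to 0.537% and 0.548% to 0.551% in single ChIP-Seq, so the Rosa tChIP-Seq libraries stood below, and the Camk2a tChIP-Seq libraries above, both.

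**Figure D1:**
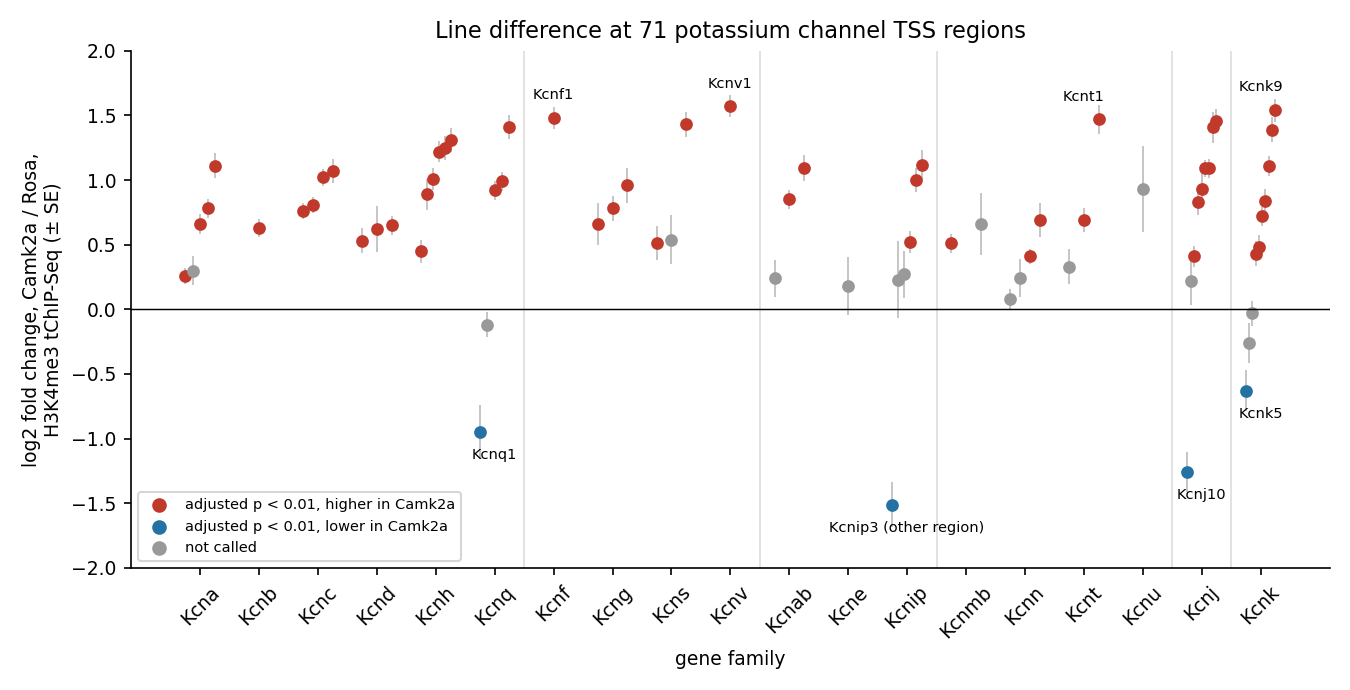
Log2 fold change (± SE) between the Camk2a and Rosa lines in tChIP-Seq at each of the 71 regions, by gene family; vertical lines separate the functional classes. All families except Kcne and Kcnu have a region called higher, and the 4 regions called lower are Kcnq1, the internal Kcnip3 promoter (written as other region), Kcnj10 and Kcnk5.

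The gated Kv alpha subunits (Kcna, Kcnb, Kcnc, Kcnd, Kcnh and Kcnq) form the largest class, with 24 regions, of which 21 were higher, 1 was lower and 2 were not called in the Camk2a line, and their median was 0.80. Kcnq3 and Kcnq5 encode subunits of the channels of the M-current, which restrains repetitive firing. Kcnq3 rose by 0.92 ± 0.0731 (adjusted p = 7.77e-19) and Kcnq5 by 0.99 ± 0.0743 (adjusted p = 4.3e-20). Kcnq1, known from heart and epithelia, had 21.9, 19.7 and 19.0 CPM in Rosa and 11.8, 8.3 and 11.1 CPM in Camk2a, a difference of -0.95 ± 0.208 (adjusted p = 8.84e-05).

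The Kcna family encodes the Kv1 channels of axons and nerve terminals. Kcna4 was at 1.11, Kcna3 at 0.78, Kcna1 at 0.66 and Kcna2 at 0.26, all 4 called higher, whereas Kcna6 (0.30 ± 0.111, adjusted p = 0.0253) was not called. Kcna2 (chr3:106903558-106909999) had 164, 179 and 176 CPM in Rosa and 201, 213 and 204 CPM in Camk2a tChIP-Seq, groups that did not overlap at a fold of 1.2. Kcna1 had 100, 92.4 and 82.0 CPM against 133, 152 and 153 CPM. The 6 Kcnh regions, of the ether-a-go-go channels, were all called higher, from 0.45 for Kcnh2 to 1.31 for Kcnh1. The A-type channel genes Kcnd2 and Kcnd3, which act in dendrites, were at 0.53 ± 0.0975 and 0.65 ± 0.0726, with adjusted p of 3.63e-06 and 1.62e-12.

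Kcnc1 and Kcnc2 encode Kv3 channels that are best known from fast-spiking interneurons. Kcnc1 (chr7:53651215-53657154) had 105, 99.6 and 106 CPM in Rosa and 202, 216 and 209 CPM in Camk2a tChIP-Seq, a log2 fold change of 1.02 ± 0.0683 (adjusted p = 8.7e-23). Kcnc2 had 53.2, 53.7 and 55.1 CPM against 105, 121 and 112 CPM (1.07 ± 0.0935, adjusted p = 6.48e-17). All 4 Kcnc regions were called higher, with a median of 0.92, beside the inhibitory neuron markers given above, none of whose 5 regions was called higher.

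Of the modifier subunits Kcnf, Kcng, Kcns and Kcnv, which form no channel alone but change Kv2 channels in which they take part, 7 of 8 regions were called higher, with a median of 0.87. Kcnv1 (chr15:44941569-44947611) gave the highest log2 fold change of all 71 regions. It had 55.3, 54.9 and 51.2 CPM in Rosa and 153, 158 and 169 CPM in Camk2a tChIP-Seq, a difference of 1.57 ± 0.086 (adjusted p = 1.45e-27). Kcnf1 was at 1.48 and Kcns2 at 1.43. Kcns3 had the lowest called value of the class, 0.51 ± 0.132 (adjusted p = 0.00091), with 25.0, 40.6 and 41.3 CPM against 51.5, 48.4 and 49.0 CPM. The first Rosa library lies apart here, and without it the value was 0.29 with an adjusted p of 0.112.

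The auxiliary subunits were more divided, with 5 of 10 regions higher, 1 lower and 4 not called, and a median of 0.39. Kcnip4 encodes a Kv4 partner, and its main region gave the highest value, 1.12 ± 0.112 (adjusted p = 1.97e-14), from 38.6, 31.0 and 53.8 CPM in Rosa and 89.6, 88.4 and 85.8 CPM in Camk2a. Kcnab1 and Kcnip2 were at 1.09 and 1.00. Kcnab2, a beta subunit of Kv1 channels, had 83.0, 89.5 and 93.8 CPM against 151, 156 and 171 CPM (0.85 ± 0.0768, adjusted p = 2.02e-16), in a region that it shares with Nphp4. Kcne3, the sole Kcne gene with a region, had 13.6, 8.95 and 15.7 CPM against 15.1, 15.5 and 12.2 CPM, overlapping groups. The second Kcnip4 region, of 659 bp, was not called either (0.23 ± 0.3, adjusted p = 0.586).

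Of the calcium- and sodium-activated channels and their subunits, 5 of 10 regions were higher and 5 were not called, with a median of 0.59. Kcnt1 encodes a sodium-activated channel. Its main region (chr2:25732799-25735117) had 33.4, 35.2 and 29.5 CPM in Rosa and 91.5, 92.4 and 88.8 CPM in Camk2a tChIP-Seq, a difference of 1.47 ± 0.111 (adjusted p = 3.46e-20). At its second region, 12446 bp upstream, the difference was 0.33 ± 0.137 (adjusted p = 0.0444), and the ratio of this region to the main one was 0.933 to 1.03 in Rosa tChIP-Seq against 0.405 to 0.51 in Camk2a tChIP-Seq. Of the small-conductance channel genes, Kcnn2 was called at 0.41 ± 0.0564 (adjusted p = 2.23e-09), from 190, 194 and 195 CPM to 254, 244 and 269 CPM, and Kcnn3 was not called (0.08 ± 0.0766, adjusted p = 0.453). The second Kcnn2 region was called at 0.69, and Kcnmb4, the neuronal beta subunit of the large-conductance channel, at 0.51.

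Among the inward rectifiers 7 of 9 regions were called higher, 1 was lower and 1 was not called, and the median of 0.93 was the highest of the 6 classes. Kcnj3, Kcnj6 and Kcnj9 encode G protein-gated channel subunits, of which Kcnj5 had no region at a TSS. Kcnj6 (chr16:95215157-95220034) had 51.7, 76.9 and 51.8 CPM in Rosa and 155, 167 and 173 CPM in Camk2a tChIP-Seq, a difference of 1.46 ± 0.0892 (adjusted p = 6.07e-25). Kcnj3 had 107, 113 and 100 CPM against 220, 236 and 224 CPM (1.09 ± 0.067, adjusted p = 9.52e-25). Kcnj3, Kcnj6 and Kcnj9 thus all stood higher in each Camk2a library than in any Rosa library. Kcnj8, known from pericytes and other mural cells, had 19.8, 15.5 and 16.4 CPM against 18.0, 21.7 and 21.0 CPM, overlapping groups with an adjusted p of 0.373. Its level in single ChIP-Seq was lower in both lines (5.5 to 9.22 CPM).

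The tandem-pore channels had 7 regions higher, 1 lower and 2 not called of 10, with a median of 0.60 and a range from -0.63 to 1.54. Kcnk9 (chr15:72374738-72378931), a pH-sensitive background channel, had 49.6, 51.9 and 49.2 CPM in Rosa and 147, 147 and 142 CPM in Camk2a tChIP-Seq (1.54 ± 0.0882, adjusted p = 1.94e-26). Kcnk4, a mechanically gated member, was at 1.39, and Kcnk1 at 0.72 ± 0.0717 (adjusted p = 2.06e-14). Kcnk5 (chr14:20999784-21001358), known from kidney and other epithelia, went down from 33.9, 29.8 and 30.8 CPM to 19.4, 22.0 and 19.5 CPM, a difference of -0.63 ± 0.158 (adjusted p = 0.000589). This call is the least firm of the 4 lower ones, since without the first Rosa tChIP-Seq library its adjusted p was 0.0112. Kcnk13, known in brain mainly from microglia, had 72.0, 72.8 and 63.6 CPM against 64.6, 73.6 and 65.6 CPM (-0.03 ± 0.0983, adjusted p = 0.821), and Kcnk6 was not called (-0.26 ± 0.155, adjusted p = 0.182).

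**Figure D2:**
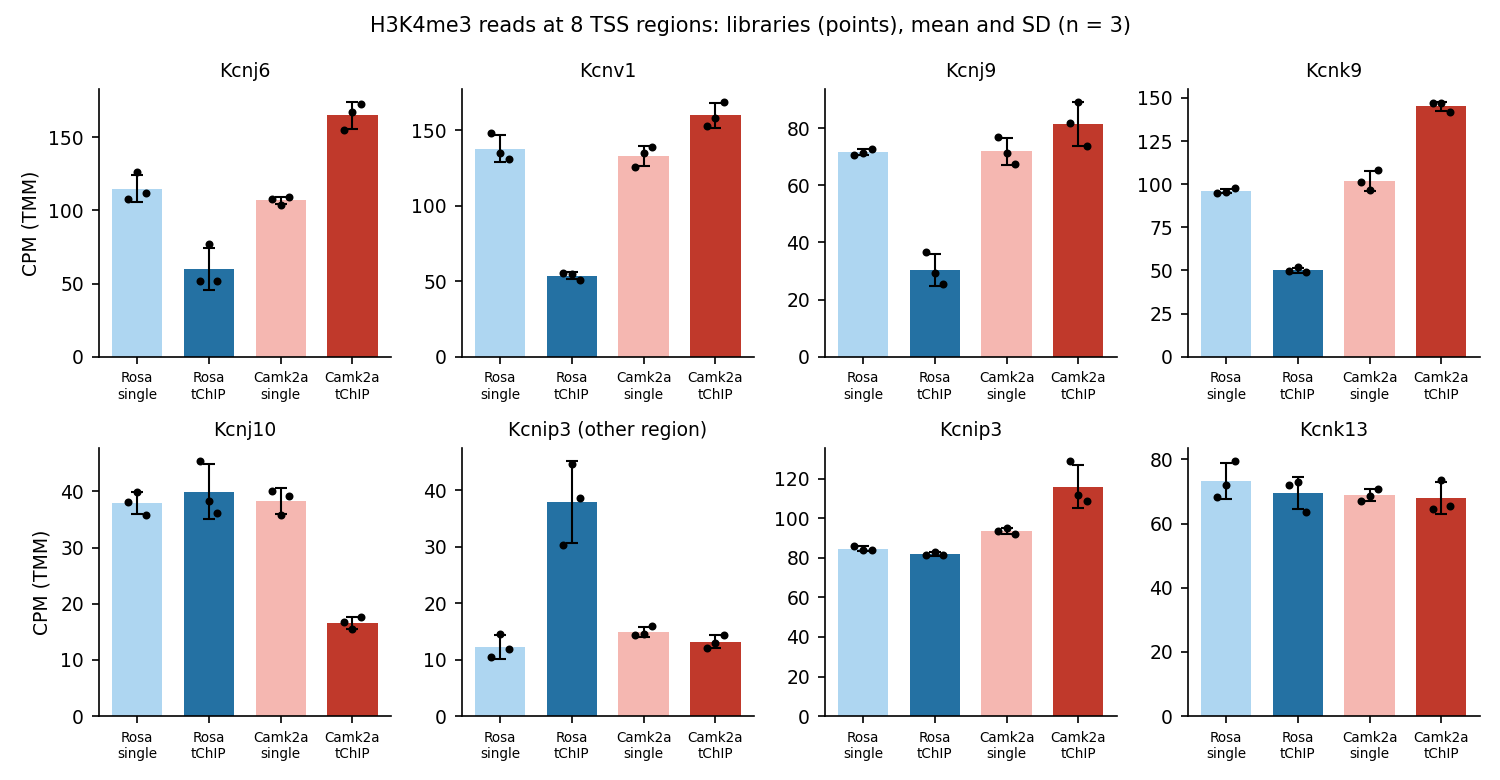
CPM in each library (points) with the group mean and SD (n = 3) at 8 regions, each panel with its own axis from 0. Kcnj6, Kcnv1, Kcnj9 and Kcnk9 are lowest in Rosa tChIP-Seq, Kcnj10 is lowest in Camk2a tChIP-Seq, the internal Kcnip3 promoter (other region) is highest in Rosa tChIP-Seq, and the 4 groups of Kcnk13 lie close together.

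Without the FLAG step, in single ChIP-Seq, the lines were much closer, and no member was called in either direction, against 0.928% of all regions called higher and 1.22% lower. The median over the members was 0.03 and the range -0.29 to 0.58. At an unadjusted p under 0.05, 11 members were higher and 4 lower, against 10.6% and 11.4% of all regions, and DESeq2's Wald test also called 0 members. The 3 Camk2a libraries lay above the 3 Rosa libraries at 9 members and below at 6, where 12.3% and 12.7% of all regions did so. Kcns3, Kcnc2 and Kcnh7 were at 0.30, 0.21 and 0.17 with adjusted p of 0.0436, 0.0461 and 0.037, short of the threshold, and were picked out after their values were seen. Of the marker lists, 3 of the 5 oligodendrocyte regions were called lower in the Camk2a line in single ChIP-Seq (summed level 267 to 269 against 308 to 318 CPM), and no gene of the other lists was called at its main region.

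Whether the line difference itself depended on the assay was tested by the interaction of line and assay over all 12 libraries. The line difference of tChIP-Seq was called above that of single ChIP-Seq at 49 members and below it at 3, with 19 not called, against 13.7% and 13.2% of all regions. The median of the interaction was 0.69 on the log2 scale. The highest values were 1.62 ± 0.1 for Kcnv1 (adjusted p = 4.31e-39) and 1.57 ± 0.102 for Kcnj6 (adjusted p = 1.27e-36). The 3 called lower were the internal Kcnip3 promoter (-1.77 ± 0.227, adjusted p = 1.78e-12), Kcnj10 (-1.28 ± 0.18, adjusted p = 1.28e-10) and Kcnk5 (-0.73 ± 0.205, adjusted p = 0.00191). Without the first Rosa tChIP-Seq library the adjusted p of Kcnk5 was 0.0146 and the call was lost. For Kcnq1 the interaction missed the threshold (-0.67 ± 0.305, adjusted p = 0.0758).

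**Figure D3:**
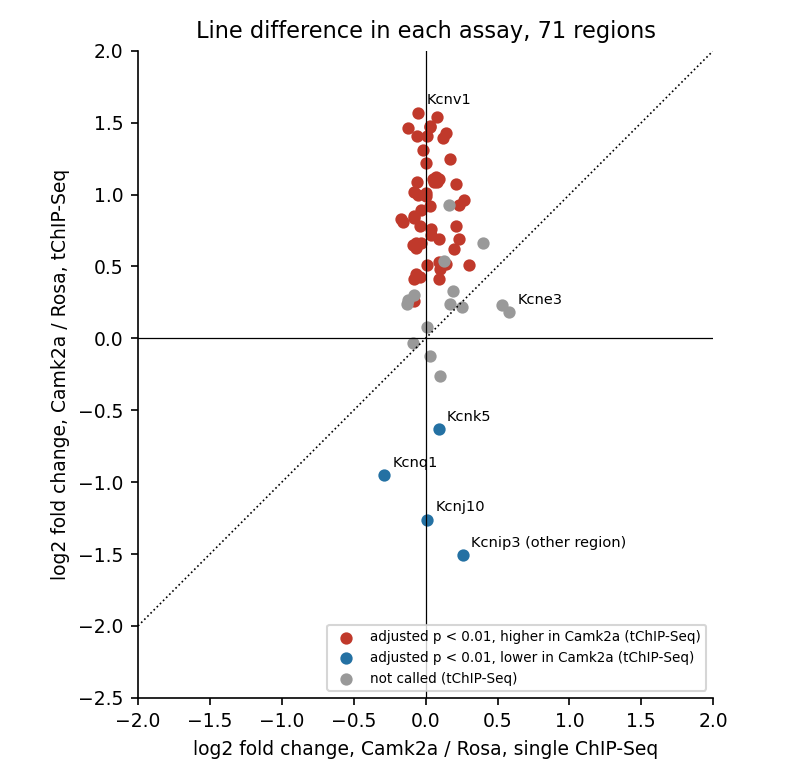
Log2 fold change between the Camk2a and Rosa lines in single ChIP-Seq (horizontal) and in tChIP-Seq (vertical) at the 71 regions, on the same scale; the dotted line marks equal values. The values ran from -1.51 to 1.57 in tChIP-Seq and from -0.29 to 0.58 in single ChIP-Seq.

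The next question was how the FLAG step changed each member within a line. Both comparisons share libraries with those above, so their values are set side by side only. The authors also found sites enriched and deprived by tChIP-Seq in the Rosa line. They name possible technical biases, such as longer DNA after the FLAG step or effects of the tagged histone. To offset these they mainly compared the lines within tChIP-Seq. The part of such biases in the values below was not tested. In the Rosa line the FLAG step raised 13 members and lowered 33, with 25 not called, against 24.7% and 22.5% of all regions, and the median was -0.19. In the Camk2a line 57 were higher and 1 lower, with 13 not called, against 25.3% and 22.6% of all regions, and the median was 0.50. A total of 26 members were lower in the Rosa line and higher in the Camk2a line, as were 4.74% of all regions. No member was higher in Rosa and lower in Camk2a, against 3.69% of all regions.

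Kcnv1 fell most in the Rosa line, from 148, 135 and 131 CPM in single ChIP-Seq to 55.3, 54.9 and 51.2 CPM (-1.34 ± 0.0808, adjusted p = 4.99e-59), followed by Kcnj9 (-1.20). In the Camk2a line Kcnv1 rose from 126, 135 and 139 CPM to 153, 158 and 169 CPM (0.26 ± 0.0555, adjusted p = 1.8e-05). At Kcnv1 the Rosa level thus moved further than the Camk2a level. For Kcnk4 it was the reverse: 51.1, 52.6 and 52.7 CPM became 38.6, 43.5 and 47.9 CPM in Rosa (-0.27 ± 0.108, adjusted p = 0.0243, not called), and 49.5, 59.9 and 61.3 CPM became 114, 110 and 114 CPM in Camk2a (0.98 ± 0.0741, adjusted p = 2.15e-27). Kcnc2 had a like pattern, at -0.10 in Rosa and 0.74 in Camk2a.

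Some members with low levels in single ChIP-Seq rose with the FLAG step in both lines. In all, 9 members (12.7%) were called higher in both, near the 10.2% of all regions. Kcnq1 rose by 1.61 ± 0.199 in Rosa and by 0.93 ± 0.237 in Camk2a, from levels of 6.05 to 7.54 CPM and 5.23 to 5.91 CPM in single ChIP-Seq. Kcnj8 rose by 1.34 ± 0.207 and 1.29 ± 0.182, and its interaction was -0.04 ± 0.267 (adjusted p = 0.936). Kcne3 was at 1.32 and 0.90, both called. The internal Kcnip3 promoter, at 1.60 ± 0.147 in Rosa (adjusted p = 1.23e-25), was not called in Camk2a (-0.18 ± 0.177, adjusted p = 0.373). Kcnj10 was the sole member called lower in the Camk2a line, from 40.1, 35.8 and 39.1 CPM to 16.7, 15.5 and 17.7 CPM (-1.20 ± 0.133, adjusted p = 2.29e-15), and in Rosa it was not called (0.09 ± 0.117, adjusted p = 0.523).

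**Figure D4:**
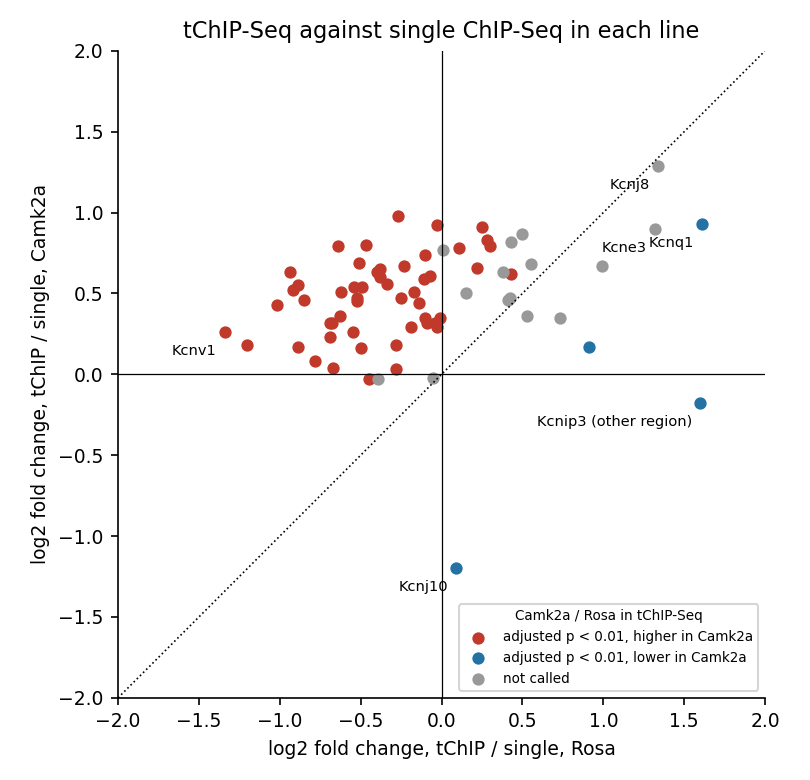
Log2 fold change of tChIP-Seq against single ChIP-Seq in the Rosa line (horizontal) and in the Camk2a line (vertical), coloured by the call between lines in tChIP-Seq. Most regions called higher in Camk2a lie in the upper left, below 0 in Rosa and above 0 in Camk2a, and Kcnj10 and the internal Kcnip3 promoter (other region) lie apart, above 0 in Rosa and below 0 in Camk2a.

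Levels of different genes were compared per kb of region. The median density over the members was 17.7 CPM per kb in Rosa tChIP-Seq, 30.7 in Camk2a tChIP-Seq, and 22.3 and 22.1 in Rosa and Camk2a single ChIP-Seq, where regions at a protein-coding TSS had 28.2, 29.5, 29.7 and 29.4. In Camk2a tChIP-Seq, Kcnk3 (43.1 ± 2.41 CPM per kb, SD, n = 3) was among the densest, and Kcnj10 (6.46 ± 0.421) was the least dense. In Rosa tChIP-Seq, Kcnn2 (29.9) was among the densest and Kcnu1 (5.18) was the least dense.

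Member regions were also wide. The narrowest spanned 659 bp and the widest 6645 bp, and their median width was 3278 bp, where regions at a protein-coding TSS had 2083 bp. Across the 71 regions the line difference in tChIP-Seq went with width at Pearson's r = 0.41 (Spearman's rho = 0.43), and across the 12985 regions at a protein-coding TSS at r = 0.24 (rho = 0.27). Regions share libraries and are not independent replicates. The line difference also went with the log2 total count of a region (r = 0.47 over the members). The regions are peaks that the authors called in this study, so which regions are listed and how wide they are may depend on the levels compared. These correlations are therefore descriptions. Of 20 members narrower than 2000 bp, 5 were called higher and 3 lower, of 23 from 2000 to below 4000 bp, 20 and 1, and of 28 of 4000 bp or more, 27 and none. Among regions at a protein-coding TSS, 8.3%, 22.5% and 51% of these width classes were called higher and 17.9%, 12.6% and 14.6% lower, so the 3 lower calls among the 20 narrow members (15%) lie near the general share. In single ChIP-Seq the correlation with width had the opposite sign (r = -0.42 over the members and -0.24 over all coding TSS regions). It was -0.16 over coding TSS regions at least 1000 bp wide. The line difference in single ChIP-Seq went more closely with the log2 total count (r = -0.53 over the members and -0.49 over all coding TSS regions).

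**Figure D5:**
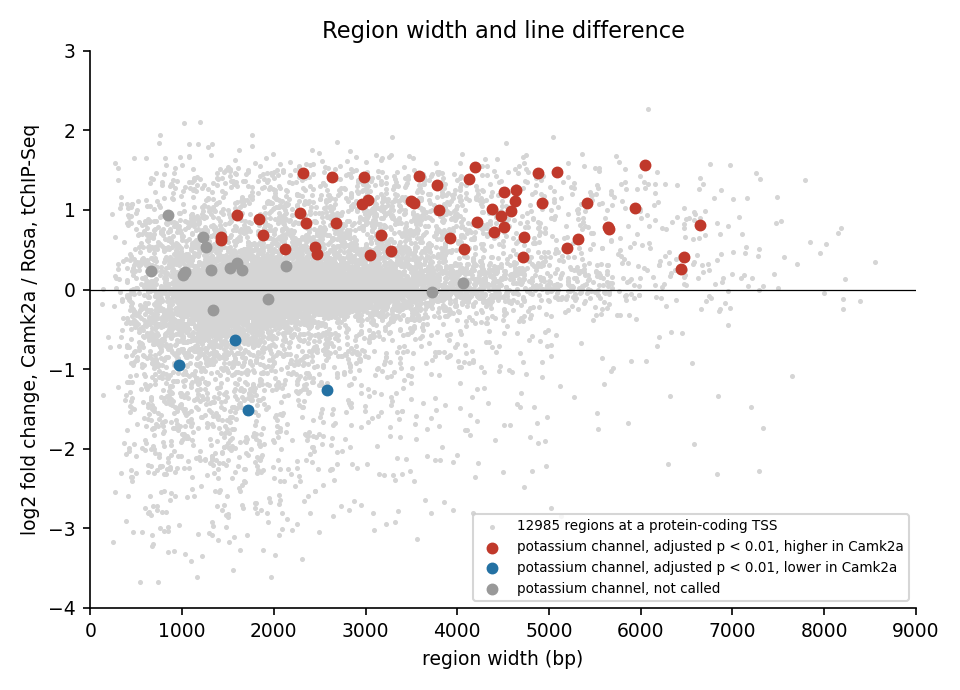
Width of each region (bp) against the log2 fold change between lines in tChIP-Seq, for the 12985 regions at a protein-coding TSS (small grey points) and the 71 potassium channel regions (large points). All 28 potassium channel regions of 4000 bp or more lie above 0, and the 4 called lower are at most 2575 bp wide.

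Sequence content was described at the start sites and over whole regions. The 71 windows of 300 bases held a median of 19 CpG (from 3 to 51) and 64.3% G or C, against 10 CpG and 55.3% over the windows of 69978 annotated protein-coding start sites, many of which lie in no region. Observed over expected CpG had a median of 0.648 in the 71 windows and 0.486 over the windows of all annotated start sites. Over whole regions the order of this measure was the reverse, at 0.52 in the members and 0.606 in regions at a protein-coding TSS. The median GC percent of whole regions was 55.7 in the members and 54.2 in regions at a protein-coding TSS. Correlations of the line difference in tChIP-Seq with GC percent of the region (r = -0.36) and with its observed over expected CpG (r = -0.31) were weak over the members. They were weaker over all coding TSS regions (-0.08 and -0.04). Spearman's rho was -0.27 and -0.35 over the members, and -0.03 and -0.16 over all coding TSS regions. Both ends of the RE1 site, the element bound by the repressor REST at many neuronal genes, were searched on both strands. TTCAGCACC was found in the window of Kcnk3 and GGACAGCGC in that of Kcnj4, 1 of 71 windows each, against 0.402% and 0.472% of all windows.

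Partners and relatives of the channels outside the Kcn symbols were listed from general knowledge. Of 16 such genes 12 had a region at a TSS, and at the region with the highest count 8 were called higher and none lower in the Camk2a line in tChIP-Seq, with a median of 0.83. Abcc9, Lrrc26, Lrrc52 and Lrrc55 had none. Dpp6 and Dpp10, which bind Kv4 channels, were at 1.32 ± 0.105 and 1.25 ± 0.0916 (adjusted p = 6.29e-19 and 9.04e-21). Abcc8, the sulfonylurea receptor that assembles with Kcnj11, was at 1.43 ± 0.138 (adjusted p = 4.83e-15), and Kcnj11 itself at 0.93 ± 0.141 (adjusted p = 3.92e-08). Cntnap2, Lgi1 and Adam22, of the Kv1 complex on axons, were at 1.33, 1.12 and 0.53, all called. Of the HCN cation channels Hcn2 was called at 0.33, while Hcn3 (0.24) and Hcn4 (0.22), and with them Amigo1 (0.11) and Lrrc38 (-0.20), were not called.

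Among the 27 genes without a region at a TSS were Kcnj13, Kcnmb1, Kcnn4, Kcne2 and Kcne4, known mainly from epithelia, smooth muscle, blood cells or heart, as well as Kcna5, Kcna7, Kcna10, Kcne1, Kcne1l, Kcng4, Kcnh6, Kcnj1, Kcnj5, Kcnj14, Kcnj15, Kcnk7, Kcnk15, Kcnk16, Kcnk18, Kcnmb3, Kcnrg and Kcnv2. For Kcnma1, Kcnh8 and Kcnb2, which are neuronal genes, the nearest region lay 196656, 122460 and 22801 bp from the TSS in this annotation. For these 3 the absence of a region may depend on the start sites annotated, and no value is given. Kcnj16, the partner of Kcnj10 in glia, missed the rule by 152 bp.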

How the data were processed

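H3K4me3 was measured in 12 libraries, and 12 input and FLAG libraries of the series were not analysed here. The authors trimmed reads with FASTX, removed repeats with Bowtie2 2.1.0, mapped to mm9 with Bowtie 1.0.0, removed duplicates with SAMtools 0.1.19, called reproducible peaks with MACS and counted reads with bedtools 2.17.0 (versions per the submitters' processing notes). The deposited values are raw counts per region over a common list of 17993 regions, and are not normalized. TSSs were those of GENCODE M1.

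Comparisons between groups used only the 6 libraries concerned, and the interaction all 12, in edgeR 4.0.16 (glmQLFit, glmQLFTest, TMM, no filter on low counts, R 4.3.3). Benjamini-Hochberg adjustment was over all regions, with calls at an adjusted p under 0.01. The procedure was tested on data simulated with the spread that edgeR fitted, which cannot show whether replicates are independent. SEs are the size of the log2 fold change over the square root of F. CPM used TMM factors over the 12 libraries. Genes named with values were the called extremes of each class and comparison, every member called lower, and lists of glial, vascular and cortical neuron channels, with other genes chosen after their values were seen. Members and lists were chosen with earlier results of these data known. The labels do not say whether replicates are separate animals, so that p-values measure only the spread between these libraries, which may be technical. Alternatives were DESeq2 1.42.0 (size factors, Wald test), library totals, a minimum of 10 counts in every library, filterByExpr, a threshold of 0.05, a replicate block, all 12 libraries in 1 fit, leaving out each library, regions within 1000 bp of a TSS, and leaving out shared regions. Same-numbered libraries did not deviate together (r from -0.019 to 0.044). The values of some single genes are not reported here, though those genes stay in all counts and medians.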

Additional observations from a re-analysis of the deposited data

Results flagged for a closer look

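The line difference depended on the assay, by the test of the interaction, at 52 of the 71 regions. The difference in tChIP-Seq lay above that in single ChIP-Seq at 49 and below it at 3. The interaction was highest at Kcnv1 (1.62 on the log2 scale) and Kcnj6 (1.57), and lowest at the internal Kcnip3 promoter (-1.77), Kcnj10 (-1.28) and Kcnk5 (-0.73). With 3 libraries per group, single libraries far from their group were not tested for.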

How the results depend on the processing

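The 10 counts of members called were within 1.5 times of the main value under the alternatives, except in 2 comparisons with counts of 0 or 1. In single ChIP-Seq, a threshold of 0.05 called 3 members higher and 1 lower, and leaving out 1 library gave 0 to 1 in each direction. With regions within 1000 bp of a TSS added, 2 in place of 1 region were lower in Camk2a tChIP-Seq than in single ChIP-Seq. Leaving out 1 library gave 49 to 53 members higher and 3 to 4 lower between lines in tChIP-Seq, 45 to 49 and 2 to 3 for the interaction, 53 to 57 and 1 for the FLAG step in Camk2a, and 10 to 14 and 30 to 34 in Rosa. Of the family medians between lines, Kcnc moved to 0.84 with library totals, and with only the main region per gene Kcnip moved to 0.76 and Kcnt to 1.08. Leaving out 1 library gave -0.02 to 0.33 for Kcne (a single region, not called), 0.81 to 1.02 for Kcnj and 0.57 to 0.67 for Kcnk. A replicate block changed 1 call of a member, in the FLAG step of the Rosa line (14 higher in place of 13), and the calls without it were all kept. Titles give the libraries of a line a common number, which may mark a shared preparation, but the labels do not say so, and between lines the libraries share only a number. Library totals moved the median of all regions by 0.10 on the log2 scale in the Rosa FLAG step and by -0.09 in the interaction. Of the genes named by the rule, no called value changed its sign, but calls were lost in 3 cases (1 gene under 1 alternative) between lines in tChIP-Seq (Kcns3, Kcnk5), 5 for the interaction (Kcnd2, Kcnip3, Kcnk5), 6 for the Rosa FLAG step (Kcns3, Kcnd3, Kcnip4) and 9 for the Camk2a FLAG step (Kcnk1, Kcnab2, Kcnq1, Kcnn2). Depth limits the Rosa tChIP-Seq libraries most, where Kcnu1, Kcnip4 (second region) and Kcnmb2, each below 10 CPM, had SEs of 0.33, 0.3 and 0.236.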

Other observations

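Regions that held no potassium channel TSS but lay within 1000 bp of one were found for Kcnj16, Kcnj11, Kcnip4 and Kcnmb2. The region 152 bp from the Kcnj16 TSS (chr11:110858953-110859549, 597 bp) held 168 reads over the 12 libraries. It averaged 7.18 CPM in Rosa and 1.31 CPM in Camk2a tChIP-Seq, a log2 fold change of -2.43 ± 0.442 (adjusted p = 3.03e-06 in edgeR's quasi-likelihood test), lower than at any of the 71 members. Kcnj16 and Kcnj10 are known to form joint channels in glia. The larger of the regions beside Kcnj11 (chr7:53352071-53354624) was higher in the Camk2a line, 55.3 against 21.9 CPM (1.35 ± 0.149, adjusted p = 1.03e-12), as was that beside Kcnip4 (0.97 ± 0.283, adjusted p = 0.00356). The regions near Kcnmb2 (0.03 ± 0.585) and the small region near Kcnj11 (0.57 ± 0.588) were not called.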
